A study of Mus musculus with 214 samples.

Results

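Branched-chain amino acid catabolism was followed through 10 genes, Bckdha, Bckdhb, Dbt, Ivd, Mccc1, Mccc2, Acadsb, Hibch, Hibadh and Aldh6a1, in livers of wild-type (WT) and Mgmt-/- mice after early-life exposure to N-nitrosodimethylamine (NDMA), a DNA-methylating nitrosamine. All 10 had a row in both count tables, of 18647 genes in the WT table and 19540 in the Mgmt-/- table. They were chosen by measured values: in an earlier look at these data, a Reactome set of this pathway was lower in NDMA-treated than in saline-treated Mgmt-/- livers at all 5 collection times. The Mgmt-/- differences after NDMA below are therefore a description and carry no test, whereas the WT mice took no part in that choice.

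Liver RNA was profiled by 3′ digital gene expression, a form of RNA-seq that reads the ends of polyadenylated transcripts. All mice were on a C57BL/6 background and carried the RaDR and gpt reporter alleles; Mgmt-/- mice also lacked O6-methylguanine-DNA methyltransferase, which removes the methyl group from O6-methylguanine. Pups of both sexes received NDMA intraperitoneally, first 3.5 mg/kg when 8 days old and then 7 mg/kg when 15 days old, or saline at the same ages, and livers were taken after a further 1, 2 or 5 days, 10 weeks or 10 months. Whole litters were assigned to a treatment at birth, so mice of a group may share a litter. The WT saline groups held 21, 8, 7, 8 and 10 livers at these 5 times and the WT NDMA groups 26, 8, 8, 8 and 13. The Mgmt-/- saline groups held 12, 7, 8, 8 and 12 livers and the Mgmt-/- NDMA groups 12, 8, 8, 8 and 13, of which 2 saline livers at day 5 were left out as described below.

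Leucine, isoleucine and valine are first transaminated and then decarboxylated by the mitochondrial branched-chain α-keto acid dehydrogenase complex (BCKDH), the committed step, after which each carbon skeleton follows a mitochondrial route of its own. Leucine ends in acetyl-CoA and acetoacetate, valine in propionyl-CoA, and isoleucine in both acetyl-CoA and propionyl-CoA. Liver is known for high BCKDH activity and little of the first transaminase, so that it mainly oxidises keto acids released by other tissues. In whole liver, fewer cells of a type and less RNA per cell cannot be told apart.

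The libraries were checked first. Depth was 150038 to 4791649 reads in WT livers (median 1710016) and 713584 to 7740710 in Mgmt-/- livers (median 2347670). The normalised read count of Mgmt itself was 13 to 130 in WT livers (median 45.8) and 0 to 9.67 in Mgmt-/- livers (median 1.09), so the ranges did not overlap. The summed count of 5 hepatocyte markers (Alb, Apoa1, Ttr, Serpina1c, Fgb) was at least 79369 in the WT and 86003 in the Mgmt-/- libraries used. In 2 Mgmt-/- saline livers at day 5, Alb, encoding serum albumin, was 526 and 161, against 134314 to 150859 in the other 6. Kap, a kidney androgen-regulated gene, was 6147 and 7562 in those 2 libraries and at most 1.80 in the other 6. They were left out throughout, and 8 of the 10 genes were outside the range of the other 6 in both, Bckdhb for 1 at 16.5 and 13.1 against 36.8 to 83.4, while Hibadh was inside it at 201 and 208. Under 300000 reads were counted in 4 WT NDMA livers, 1 at each time after day 1. In 2 WT NDMA livers at day 1 the sex-linked transcripts did not match the labelled sex.

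The genes lie on 8 mouse chromosomes (GRCm38, GENCODE vM21). For the BCKDH subunits, Bckdha, encoding E1α, is at chr7:25629946-25658981 on the minus strand, Bckdhb, encoding E1β, at chr9:83925145-84124240 on the plus strand, and Dbt, encoding the E2 transacylase, at chr3:116513070-116549981 on the plus strand. On the leucine route, Ivd, isovaleryl-CoA dehydrogenase, is at chr2:118861954-118882909 on the plus strand. Mccc1 at chr3:35959312-36000678 and Mccc2 at chr13:99948530-100015639, both on the minus strand, encode the biotin-carrying α subunit and the β subunit of 3-methylcrotonyl-CoA carboxylase. Acadsb, the short/branched-chain acyl-CoA dehydrogenase of the isoleucine route, is at chr7:131410601-131448944 on the plus strand. On the valine route, Hibch, 3-hydroxyisobutyryl-CoA hydrolase, is at chr1:52844929-52920986 on the plus strand. Hibadh, 3-hydroxyisobutyrate dehydrogenase, is at chr6:52546228-52640389 and Aldh6a1, methylmalonate semialdehyde dehydrogenase, at chr12:84430717-84451004, both on the minus strand. At the 3′ end, where this assay reads, Bckdha is overlapped by B3gnt8, Aldh6a1 by Bbof1, Acadsb by Fgfr2 and Mccc1 by Gm15952, all on the opposite strand. Whether the counting used strand is not given in the sources used here, so reads of such partners cannot be told apart from those of the gene. B3gnt8 and Bbof1 were themselves counted at no more than 6.00 and 14.4 in any library. Fgfr2 was counted as well, but its values were not examined here.

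The 250 bases before the annotated start are shown for 4 of the genes, picked by their values. Mccc1 and Mccc2 encode subunits of the same enzyme but differed in their calls after NDMA, a difference that was not tested. Bckdhb and Aldh6a1 were among the genes lower in both genotypes. The sequences are from RefSeq on GRCm38.p6, with entries for 9 of the 10 genes, and capitals mark matches to CCAAT or GGGCGG on either strand (ATTGG and CCGCCC on the other strand).
Mccc1, chr3:36000679-36000928, minus strand: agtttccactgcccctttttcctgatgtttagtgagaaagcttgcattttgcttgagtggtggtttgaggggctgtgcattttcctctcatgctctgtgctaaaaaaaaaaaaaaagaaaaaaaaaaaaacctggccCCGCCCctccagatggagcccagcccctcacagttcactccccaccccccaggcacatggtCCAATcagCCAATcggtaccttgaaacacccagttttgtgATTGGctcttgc
Mccc2, chr13:100015640-100015889, minus strand: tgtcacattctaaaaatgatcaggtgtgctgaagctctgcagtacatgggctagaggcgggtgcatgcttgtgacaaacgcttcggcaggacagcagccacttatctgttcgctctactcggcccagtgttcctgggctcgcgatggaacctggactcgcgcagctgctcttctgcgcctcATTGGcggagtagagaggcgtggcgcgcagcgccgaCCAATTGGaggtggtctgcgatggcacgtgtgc
Bckdhb, chr9:83924887-83925136, plus strand: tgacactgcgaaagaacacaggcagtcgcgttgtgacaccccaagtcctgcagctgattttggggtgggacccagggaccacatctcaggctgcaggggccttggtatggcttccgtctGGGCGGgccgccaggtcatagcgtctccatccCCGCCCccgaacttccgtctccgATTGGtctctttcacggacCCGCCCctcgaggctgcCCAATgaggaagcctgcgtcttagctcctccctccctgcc
Aldh6a1, chr12:84451025-84451274, minus strand: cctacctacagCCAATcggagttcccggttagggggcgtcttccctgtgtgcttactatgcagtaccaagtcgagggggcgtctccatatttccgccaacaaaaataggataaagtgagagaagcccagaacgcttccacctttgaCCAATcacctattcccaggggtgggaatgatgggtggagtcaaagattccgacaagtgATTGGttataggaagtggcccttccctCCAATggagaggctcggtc
The Mccc1 window held 48.4% G and C with 2 CpG dinucleotides, and the Mccc2 window 58.8% with 18. The Bckdhb window held 63.2% with 15 CpG and the Aldh6a1 window 52.4% with 9, against medians of 52.4% and 6 CpG over 32851 promoters. CCAAT was found in 6 of the 9 windows and in 33.8% of all promoters, and GGGCGG in 5 of 9 and in 32.7%. The E-box CACGTG was found in 1 window, that of Mccc2 (6.02% of all promoters), TTGCNNAA in 1, that of Acadsb (9.56%), and TATAAA in 0 (12.4%). In Mccc2 the run of 8 capitals holds overlapping matches on both strands. These matches describe the letters of the windows only.

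In Mgmt-/- livers, which were the basis of the choice, NDMA-treated mice had lower normalised read counts of most of the 10 genes from day 1 to day 5. A gene was called when the adjusted p of limma over all genes tested was under 0.05 and the absolute log2 fold change over 0.58. By this rule 8 genes were called lower at day 1, 7 at day 2, 7 at day 5, 1 at week 10 and 1 at month 10, and 0 were called higher at any time. Of all genes tested at the 5 times in turn, 8.64%, 7.5%, 6.71%, 3.88% and 2.99% were called lower, and 9.06%, 12.4%, 11.1%, 7.27% and 4.75% higher. The median log2 fold change of the 10 genes was -0.95, -0.69, -0.71, -0.42 and -0.31 at the 5 times, and that of all genes tested between -0.01 and 0.04.

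All 3 BCKDH subunit genes were lower at day 1 in NDMA-treated Mgmt-/- livers. The Bckdhb normalised read count had a lowest, median and highest value of 62.9, 78.5 and 104 in saline livers and 22.1, 45.0 and 56.2 in NDMA livers, a log2 fold change of -1.01 ± 0.14 (SE). All 12 NDMA livers lay below the lowest saline liver. For Bckdha the values were 109, 174 and 287 and 38.2, 92.5 and 137 (log2 fold change -1.01 ± 0.15). For Dbt they were 149, 206 and 409 and 37.2, 114 and 290.0 (log2 fold change -0.95 ± 0.15), and here as for Bckdha the groups overlapped. Bckdhb again did not overlap at day 2, with 53.6, 62.7 and 96.4 in saline and 28.6, 40.8 and 51.0 in NDMA livers. By week 10 the log2 fold changes of Bckdha, Bckdhb and Dbt were -0.51 ± 0.19, -0.29 ± 0.18 and -0.43 ± 0.20, and at month 10 -0.29 ± 0.15, -0.21 ± 0.14 and -0.47 ± 0.16, none of them called.

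On the leucine route the 2 subunits of 3-methylcrotonyl-CoA carboxylase differed. Mccc2 had the lowest log2 fold change of the 10 genes at each of days 1, 2 and 5. Its normalised read count was 48.3, 118 and 235 (lowest, median, highest) in saline and 9.20, 57.5 and 97.2 in NDMA livers at day 1 (log2 fold change -1.40 ± 0.27). At day 2 it was 141, 159.5 and 196 against 34.3, 83.5 and 111 (log2 fold change -1.19 ± 0.22). At day 5 it was 173, 181 and 309 against 57.3, 86.1 and 155 (log2 fold change -1.15 ± 0.19). The groups did not overlap on days 2 and 5, and Mccc2 was the gene called at week 10 (log2 fold change -0.67 ± 0.17). Mccc1 was called at none of the 5 times, with log2 fold changes of -0.49 ± 0.17 at day 1, -0.20 ± 0.13 at day 2 and -0.38 ± 0.14 at day 5. Its day 2 counts were 97.7, 111 and 138 in saline and 79.4, 96.0 and 140.4 in NDMA livers, overlapping over most of their range. The difference between the subunits was not tested. Ivd, 1 step upstream, was called lower on days 1, 2 and 5, with 165, 339.7 and 448 in saline and 59.5, 145 and 297 in NDMA livers at day 1 (log2 fold change -1.17 ± 0.16).

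Acadsb, on the isoleucine route, was called lower on days 1, 2 and 5 (log2 fold changes -0.87 ± 0.13, -0.66 ± 0.13 and -0.81 ± 0.14). At day 2 its counts were 147, 195 and 237 in saline and 94.2, 121 and 145 in NDMA livers, with no overlap. At month 10 its log2 fold change was 0.00 ± 0.15.

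The valine route held both a gene called at no time and the gene that was called at month 10. Hibch, which frees 3-hydroxyisobutyrate, was called at none of the 5 times (log2 fold changes -0.51 ± 0.13 at day 1 and 0.18 ± 0.12 at day 5). Hibadh, which oxidises it, was called lower on days 1, 2 and 5. Its counts did not overlap at day 2 (161, 226 and 249 in saline, 92.7, 135 and 157 in NDMA), at day 5 (194, 236 and 263 and 113, 141 and 174) or at week 10 (406, 461 and 555 and 235, 318 and 377). At week 10 its log2 fold change of -0.58 ± 0.16 fell just short of the fold threshold, which edgeR put it past (-0.59). Aldh6a1, which completes the route to propionyl-CoA, had day 5 counts of 490.3, 569 and 752 in saline and 251, 333 and 412 in NDMA livers. The log2 fold change of Aldh6a1 was -0.95 ± 0.17 at day 1, -0.66 ± 0.12 at day 2 and -0.83 ± 0.13 at day 5, and the groups did not overlap on days 2 and 5. It was -0.66 ± 0.22 at week 10, not called by limma but called by edgeR, DESeq2 and with pseudocount 5, and -0.76 ± 0.20 at month 10, when Aldh6a1 was the gene called (313, 495 and 1688 in saline and 190.4, 333 and 795 in NDMA livers, overlapping).

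**Figure D1:**
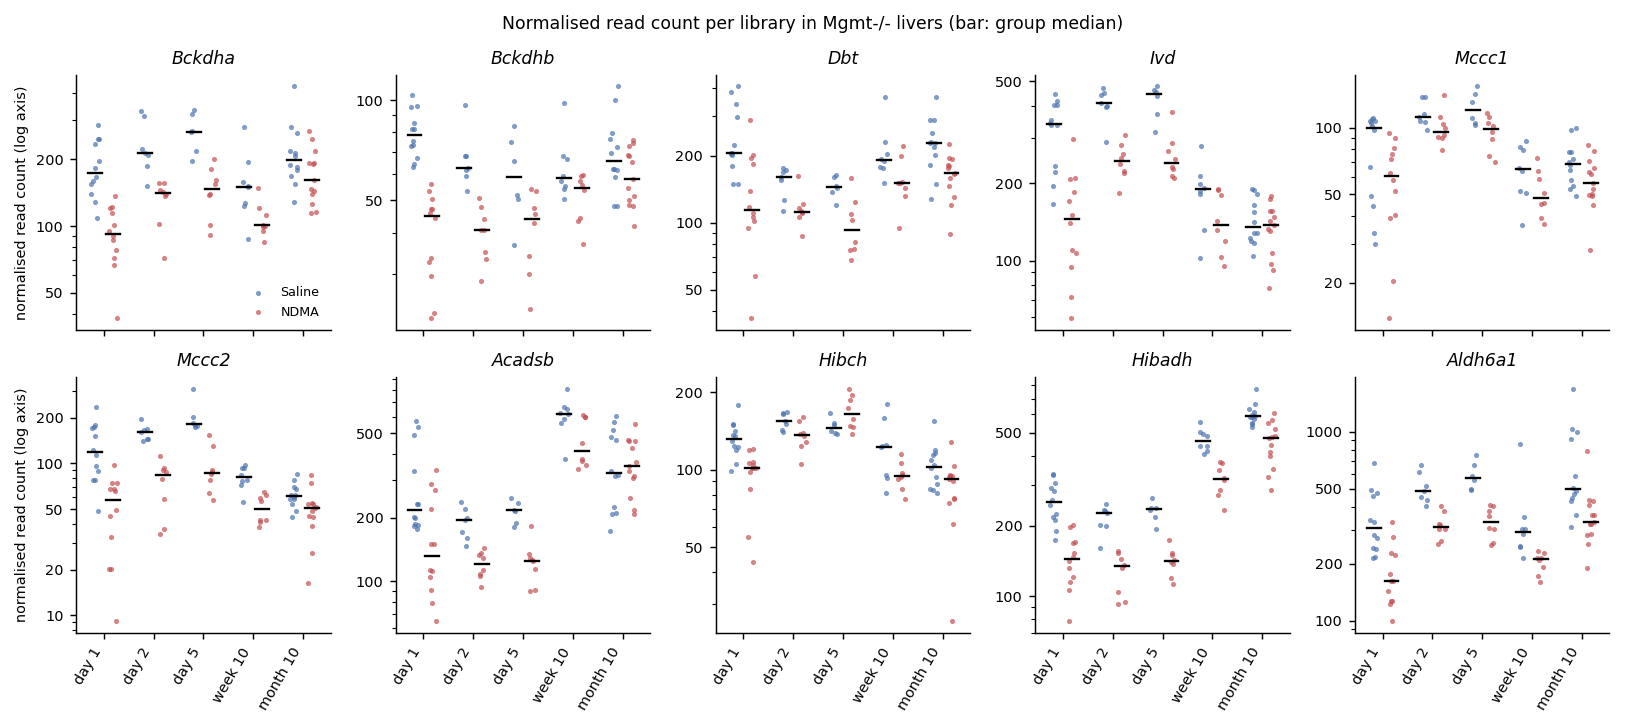
Normalised read count (log axis) of the 10 genes in each Mgmt-/- library by time after the second injection, saline in blue and NDMA in red, with a bar at each group's median; the 2 kidney-rich saline libraries of day 5 are left out. NDMA points lie below all saline points for 1 gene at day 1, 5 genes at day 2, 3 genes at day 5, 1 gene at week 10 and 0 genes at month 10, against 0.457%, 3.02%, 3.23%, 0.609% and 0.0596% of all genes tested.

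The numbers of genes whose groups did not overlap were 1 at day 1 (Bckdhb), 5 at day 2 (Bckdhb, Mccc2, Acadsb, Hibadh and Aldh6a1), 3 at day 5 (Mccc2, Hibadh and Aldh6a1), 1 at week 10 (Hibadh) and 0 at month 10. Of all genes tested, NDMA livers lay below every saline liver for 0.457%, 3.02%, 3.23%, 0.609% and 0.0596% at the 5 times, and above every saline liver for 0.776%, 6.19%, 6.0%, 2.4% and 0.129%. The Mgmt-/- livers of day 1 came from batches 191212Eng and 200803Eng, those of days 2 and 5 from 191212Eng and those of week 10 and month 10 from 200803Eng. In batch 200803Eng alone, with 4 saline and 4 NDMA livers, 4 genes were called lower at day 1 beside 2.86% of all genes tested, where the full comparison called 8 beside 8.64%. With the 2 kidney-rich libraries kept, 4 genes were called lower at day 5 in place of 7 (3.14% of all genes tested in place of 6.71%), Bckdha, Dbt and Ivd no longer among them. Scaling every library to the same total raised the median log2 fold change of all genes by 0.19, 0.16, 0.14 and 0.20 on days 1, 2 and 5 and at week 10. It left 3 genes called lower on day 2, 4 on day 5 and 0 at week 10, with 4.4%, 4.5% and 1.81% of all genes tested called lower, and no direction reversed at these times.

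In WT livers, where the direction had not been used to pick the genes, 4 of the 10 were called lower on day 1, 1 on day 2, 2 on day 5, 0 at week 10 and 0 at month 10. Of all genes tested, 4.19%, 2.91%, 1.39%, 0.0% and 0.0% were called lower at the 5 times and 5.01%, 3.33%, 2.22%, 0.0249% and 0.0% higher. None of the 10 was called higher. All 10 log2 fold changes were below 0 on days 1, 2 and 5, with medians of -0.46, -0.58 and -0.46 against -0.03, -0.08 and -0.07 over all genes tested. These signs did not all hold: Hibch, near 0 on all 3 days, was above 0 on each of them under several alternatives, Mccc1 (0.08) and Dbt (0.05) on day 1 in a single batch each, and Dbt on day 5 in females alone (0.13). At week 10, 2 of 10 were below 0 (median 0.10 against -0.03) and at month 10, 6 of 10 (median -0.07 against -0.06). The NDMA and saline groups overlapped for all 10 genes at all times. At week 10 and month 10, 0 of the 10 genes had an unadjusted p under 0.05 with limma, and edgeR and DESeq2 called 0 of them. Over all genes, 350 had an unadjusted p under 0.05 at week 10 and 757 at month 10.

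At day 1 the WT genes called lower were Bckdhb, Ivd, Mccc2 and Hibadh. Bckdhb had normalised read counts of 33.8, 72.9 and 137 (lowest, median, highest) in 21 saline livers and 26.1, 43.8 and 99.0 in 26 NDMA livers. Its log2 fold change was -0.73 ± 0.12 (adjusted p = 8.65e-06), and 24 of 26 NDMA livers were below the saline median. Hibadh was at 123, 175 and 253 in saline and 49.6, 119 and 224 in NDMA livers (log2 fold change -0.63 ± 0.11, adjusted p = 2.16e-05), with 24 of 26 NDMA livers below the saline median and 15 below the lowest saline liver. The groups still overlapped. Mccc2 was at 32.1, 78.5 and 113 in saline and 23.9, 45.0 and 85.6 in NDMA livers (log2 fold change -0.61 ± 0.12, adjusted p = 7.81e-05; 25 of 26 below the saline median). Ivd was at 71.0, 262 and 352 in saline and 65.0, 158 and 256 in NDMA livers (log2 fold change -0.61 ± 0.14, adjusted p = 0.00124), and all 26 NDMA livers were below the saline median.

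The other BCKDH subunits passed the p threshold at day 1 but not the fold threshold. Bckdha had counts of 40.4, 110.1 and 218 in saline and 34.3, 73.8 and 125 in NDMA livers (log2 fold change -0.54 ± 0.11, adjusted p = 0.000265), and Dbt a log2 fold change of -0.33 ± 0.10 (adjusted p = 0.0168). Acadsb and Aldh6a1 did likewise, at -0.37 ± 0.10 (adjusted p = 0.00418) and -0.38 ± 0.10 (adjusted p = 0.00374). Mccc1 (-0.20 ± 0.11, adjusted p = 0.217) and Hibch (-0.03 ± 0.10, adjusted p = 0.876) passed neither.

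In WT, Aldh6a1 was called lower on both day 2 and day 5. On day 2 its counts were 259.6, 329 and 589 in 8 saline livers and 102, 168 and 311 in 8 NDMA livers (log2 fold change -1.11 ± 0.17, adjusted p = 0.000526). On day 5 they were 189.8, 317 and 401 in 7 saline and 114, 151 and 245 in 8 NDMA livers (log2 fold change -0.81 ± 0.20, adjusted p = 0.0271). All 8 NDMA livers were below the saline median each time, 7 of them below the lowest saline liver on day 2 and 6 on day 5. Mccc1 was also called on day 5, with 31.9, 52.0 and 85.1 in saline and 16.4, 33.7 and 54.0 in NDMA livers (log2 fold change -0.79 ± 0.20, adjusted p = 0.0345). Its partner Mccc2 had a log2 fold change of -0.75 ± 0.25 that day and missed the p threshold (adjusted p = 0.0964).

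**Figure D2:**
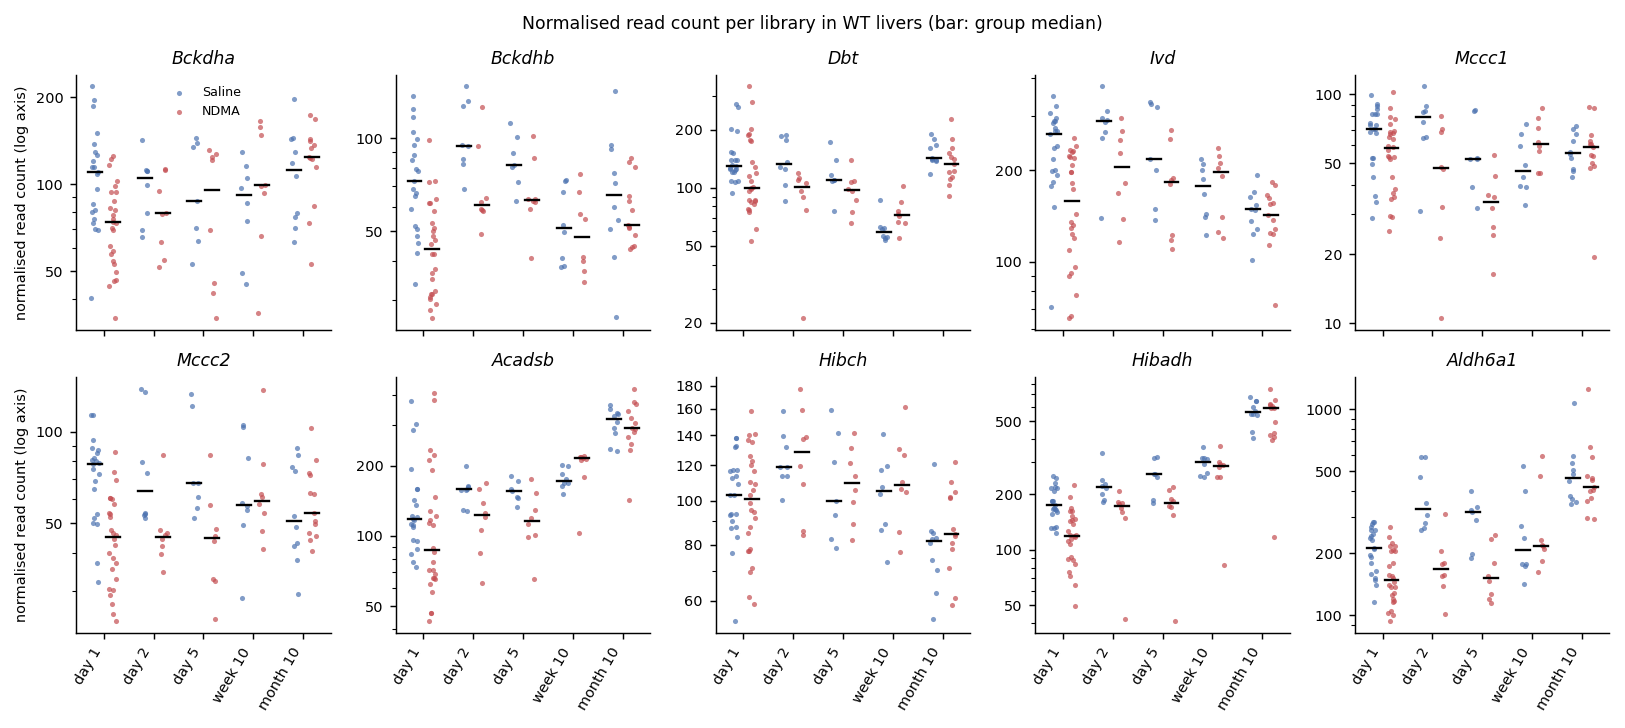
Normalised read count (log axis) of the 10 genes in each WT library by time after the second injection, saline in blue and NDMA in red, with a bar at each group's median. The groups overlap for every gene and time, and the single low red point of Hibadh at day 2 (42.1), day 5 (41.0), week 10 (82.1) and month 10 (117) is the library with fewer than 300000 reads.

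The 4 shallow WT NDMA libraries had the lowest Hibadh of their groups, at 42.1, 41.0, 82.1 and 117. Without the shallow library the Hibadh log2 fold change was -0.36 on day 2 in place of -0.60, and -0.43 on day 5 in place of -0.71. Without it, Bckdhb (-0.66) and Mccc2 (-0.60) were called beside Aldh6a1 on day 2, which made 3 genes (4.79% of all genes tested were called lower). Aldh6a1 and Mccc1 were still called on day 5. Neither was called that day without the filter on low values (adjusted p = 0.0849 and 0.0621) or without covariates (0.0534 and 0.19). Batch and sex could not be told apart at these times, since males were in batch 200710Eng and females in batch 200724Eng. Males alone gave 2 called genes on day 2 and 4 on day 5 (4.22% and 5.36% of all genes tested were called lower), and females alone 0 and 0, where 0 of all genes tested were called in females. At day 1, batch 191212Eng alone (8 saline, 8 NDMA) gave 2 called genes (5.13% of all genes tested were called lower), batch 200803Eng alone (4 saline, 6 NDMA) gave 0 of all genes tested, and batch 210901Eng alone (9 saline, 12 NDMA) gave 6 (5.36%). Without the 2 libraries whose transcripts did not match their labelled sex, 5 genes were called, Bckdha being the addition (4.99% of all genes tested). Scaling every library to the same total left 1 gene called on day 1 (3.03% of all genes tested were called lower), Bckdhb, with Ivd, Mccc2 and Hibadh at -0.56, -0.57 and -0.58, just short of the fold threshold. With limma 0 of the 10 genes, and 0 of all genes tested, were called for the term of sex by treatment at any of the 5 WT times. Of the terms of the 10 genes, 4 had an unadjusted p under 0.05 with limma. Over all genes the numbers were 155 of 9028, 472 of 8568, 488 of 8654, 387 of 8048 and 544 of 9254 at the 5 times. Both edgeR and DESeq2 called 0 of the 10 genes, and no more than 2 of all genes tested at any time.

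Whether the WT response differed between times was tested by interaction terms. Of all genes, 2.12% were called between day 1 and week 10 and 1.82% between day 1 and month 10. No WT batch held both day 1 and week 10 livers, so that difference cannot be told apart from one between batches. Day 1 and month 10 livers shared only 1 batch. Bckdha was called between day 1 and week 10, where its log2 fold change at day 1 minus that at week 10 was -0.77 ± 0.23 (adjusted p = 0.0496). Mccc2 was called between day 1 and month 10 (-0.78 ± 0.22, adjusted p = 0.0316). The Bckdha term did not stay past its threshold under pseudocount 0.5, without the filter on low values, without covariates, under equal-total scaling or with edgeR, nor did the Mccc2 term without covariates or under equal-total scaling. With limma no other of the 10 genes was called in either test, whereas DESeq2 also called Bckdhb between day 1 and week 10 (-0.73). No test of the genotypes against each other was made, because the authors normalised each genotype by itself.

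**Figure D3:**
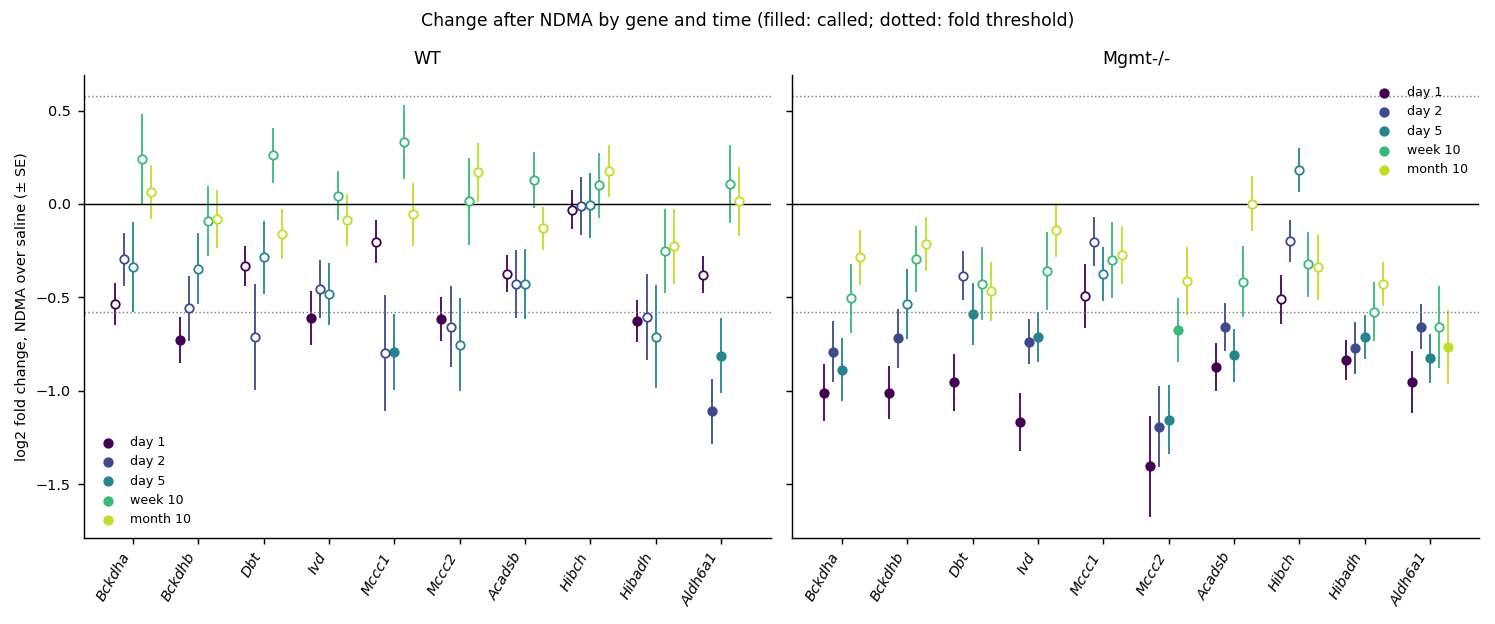
Log2 fold change of NDMA over saline (± SE) for each gene and time in WT and Mgmt-/- livers; filled points were called, and dotted lines mark the fold threshold of 0.58. In WT 7 points are filled, none after day 5, and in Mgmt-/- 24 are filled, 22 of them on days 1, 2 and 5.

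Other genes of the pathway were taken from a list of 24. In WT livers 4 were called lower at day 1, 1 at day 2 and 0 at the later times, and in Mgmt-/- livers 12, 4, 4, 4 and 5 were called lower at the 5 times. Over all genes tested the shares called lower were those given above, 4.19% and 2.91% on days 1 and 2 in WT, and 8.64%, 7.5%, 6.71%, 3.88% and 2.99% in Mgmt-/- livers. None of the list was called higher, and 21 to 23 of the 24 passed the filter on low values. The list overlaps the Reactome set behind the choice, so its Mgmt-/- counts are again a description.

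Of the transaminases, the regulators of BCKDH and its shared subunit, Ppm1k was called and the others were not. Bcat1, the cytosolic transaminase, was at or near 0 in all groups and was not tested, and Bcat2, the mitochondrial form, was not called after NDMA at any time in either genotype (log2 fold change -0.01 ± 0.15 in WT and -0.28 ± 0.21 in Mgmt-/- livers at day 1). Bckdk, the kinase that inactivates BCKDH, was not called either (-0.23 ± 0.13 and -0.14 ± 0.21 at day 1). Ppm1k, the phosphatase that reactivates it, had counts of 60.9, 120.0 and 224 in WT saline and 34.5, 67.1 and 107 in WT NDMA livers at day 1, and it fell (log2 fold change -0.73 ± 0.12, adjusted p = 2.73e-06). Ppm1k counts in Mgmt-/- livers were 67.7, 117 and 226 and 26.7, 43.4 and 86.0 at day 1. The Mgmt-/- log2 fold changes of Ppm1k were -1.41 ± 0.17 at day 1, -0.95 ± 0.29 at day 2 and -0.71 ± 0.21 at month 10, each called. Dld, the E3 subunit that BCKDH shares with other dehydrogenase complexes, was not called at any time (0.06 ± 0.11 in WT and -0.26 ± 0.14 in Mgmt-/- livers at day 1).

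Downstream, Acat1, which splits 2-methylacetoacetyl-CoA from isoleucine and also acts on acetoacetyl-CoA, was lower at day 1 in both genotypes. In WT it was at 844, 1859.9 and 2902 in saline and 531, 1019.8 and 2032 in NDMA livers (log2 fold change -0.88 ± 0.12, adjusted p = 1.05e-07). The Mgmt-/- Acat1 counts were 1129, 2201 and 2888 and 501, 1012 and 1447 at day 1, with log2 fold changes called at day 1 (-1.15 ± 0.14), day 2 (-0.86 ± 0.22), week 10 (-0.73 ± 0.17) and month 10 (-0.68 ± 0.15). Pcca and Pccb encode the subunits of propionyl-CoA carboxylase, which takes up the valine and isoleucine product. At day 1 in WT the log2 fold change was -0.73 ± 0.11 for Pcca (adjusted p = 3.91e-07) and -0.65 ± 0.12 for Pccb (adjusted p = 2.24e-05). Among Mgmt-/- groups Pcca was called at day 1 (-0.85 ± 0.14), day 2 (-0.73 ± 0.17) and month 10 (-0.58 ± 0.17), and Pccb at day 1 (-0.65 ± 0.12), day 5 (-0.72 ± 0.13) and week 10 (-0.70 ± 0.21). Etfdh, which passes electrons from acyl-CoA dehydrogenases to ubiquinone, was called at day 1 (-0.78 ± 0.12), week 10 (-0.75 ± 0.15) and month 10 (-0.64 ± 0.17) in Mgmt-/- livers.

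**Figure D4:**
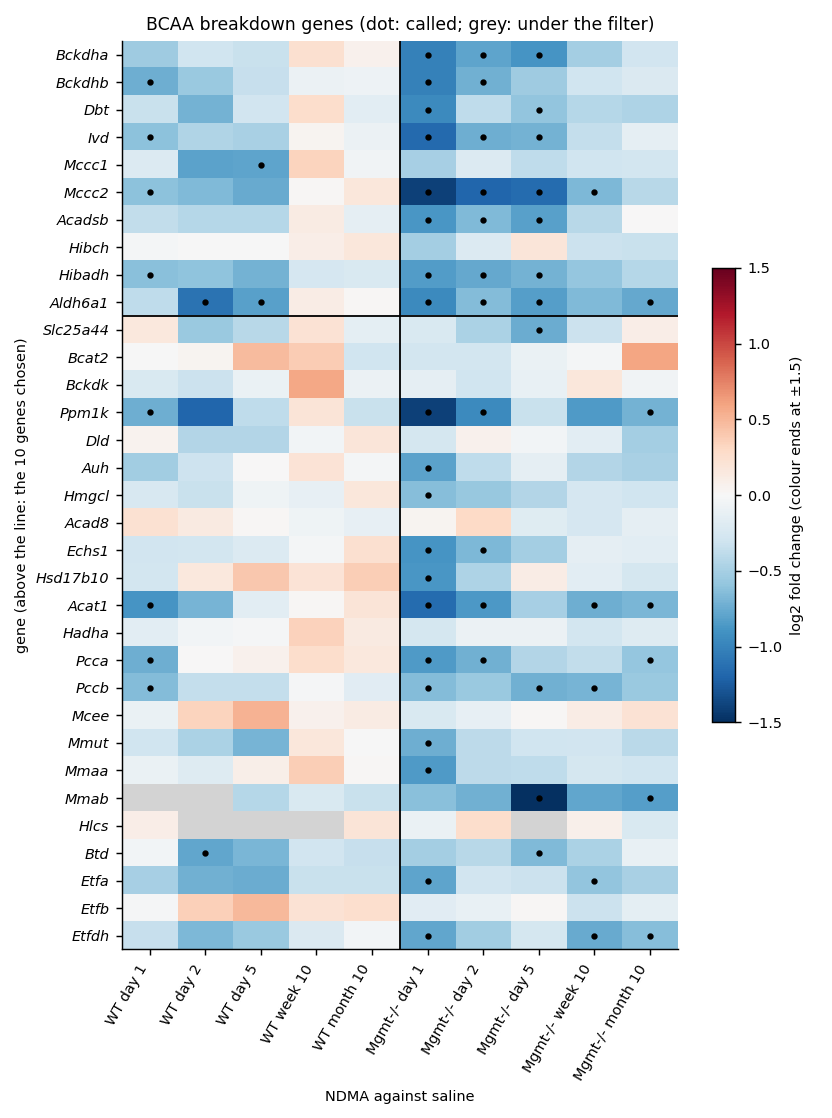
Log2 fold change of NDMA over saline by colour, blue for lower and red for higher, for the 10 genes above the line and 23 other pathway genes below it, in WT (left columns) and Mgmt-/- livers (right columns); dots mark calls and grey marks genes under the filter on low values. The dots lie on blue cells, with more in the Mgmt-/- day 1 column than in any other, and the colour ends at 1.5 in each direction (the lowest value is -1.76).

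Beside the pathway, 2 lists of other mitochondrial enzymes were counted. Of 6 subunits of the sister complexes, pyruvate and 2-oxoglutarate dehydrogenase, 0 were called at any time in WT, and 1, 0, 1, 0 and 1 were called lower at the 5 times in Mgmt-/- livers. All of these calls were of Dlat, the E2 subunit of pyruvate dehydrogenase (log2 fold change -0.74 ± 0.19 at day 1), whereas Pdhb, its E1β subunit, was at -0.26 ± 0.13. Of 14 tricarboxylic acid cycle genes, 0, 1, 1, 0 and 0 were called lower in WT with 1 called higher at day 1, and 1, 2, 1, 2 and 0 were called lower in Mgmt-/- livers. Suclg2, the GTP-specific β subunit of succinyl-CoA ligase, was called lower in Mgmt-/- livers on days 1, 2 and 5 and at week 10 (-1.05 ± 0.15 at day 1). At the 5 times in turn, 4.19%, 2.91%, 1.39%, 0.0% and 0.0% of all genes tested were called lower in WT, with 5.01% called higher at day 1. In Mgmt-/- livers the shares called lower were 8.64%, 7.5%, 6.71%, 3.88% and 2.99%. The lists were not tested against each other or against all genes.

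Some markers of liver cell types were called after NDMA as well. In Mgmt-/- livers 8.64%, 7.5%, 6.71%, 3.88% and 2.99% of all genes tested were called lower at the 5 times. There 9.06%, 12.4%, 11.1%, 7.27% and 4.75% were called higher. In WT the shares were 4.19%, 2.91%, 1.39%, 0.0% and 0.0% lower and 5.01%, 3.33%, 2.22%, 0.0249% and 0.0% higher. Of 5 hepatocyte markers (Alb, Apoa1, Ttr, Serpina1c, Fgb), 3 were called lower at day 1, 3 at day 2, 1 at day 5 and 1 at week 10 in Mgmt-/- livers, and 1 higher at month 10. In WT 1 was called lower at day 2 and 0 at the other times. Their summed count had a median of 302754 in saline and 196701 in NDMA livers at day 1 in Mgmt-/-, and 247594 and 190665 in WT, with Alb the most abundant in 3 of these 4 groups and Ttr in WT NDMA livers. Immune markers, of which 7 or 8 of 10 were tested, were called higher for 1, 6, 6, 3 and 2 genes in Mgmt-/- livers and 3, 2, 3, 0 and 0 in WT, and 1 was called lower on each of days 1 and 5 in Mgmt-/- livers and on day 2 in WT. Their summed median at day 2 was 1049.8 in saline and 2097 in NDMA Mgmt-/- livers, led by Lyz2. Of 6 mesenchymal markers, 4, 3 and 1 were called lower on days 1, 2 and 5 in Mgmt-/- livers and 4 and 3 higher at week 10 and month 10, and 3, 1 and 1 were called lower on days 1, 2 and 5 in WT. In each genotype 1 was called higher on day 1 and 1 on day 2, and in Mgmt-/- livers 1 on day 5. Of 6 cholangiocyte markers, 1 or 2 were tested, led by Spp1. Their summed median in Mgmt-/- livers was 326 in saline and 118 in NDMA livers on day 5, 86.9 and 825 at week 10, then 87.0 and 366 at month 10. In those livers 1 was called lower on each of days 1 and 5 and 1 higher at each of week 10 and month 10, and in WT 1 was called higher on day 1. The erythroid markers, led by Alas2, had 2, 2 and 3 called lower on days 1, 2 and 5 in Mgmt-/- livers, with summed medians of 456 and 229 on day 5, and 0 called in WT. Of 6 endothelial markers, 3, 1 and 2 were called lower on days 1, 2 and 5 and 1, 2, 2, 1 and 1 higher at the 5 times in Mgmt-/- livers, and 1 was called lower on day 1 in WT. The part of these markers in the pathway's values was not tested. Kidney markers summed to no more than 21.5 in any library used, with Umod and Slc12a1 at 0 in every library of most groups.

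Among saline livers 6 of the 10 genes were called between ages in at least 1 of 6 comparisons, below the 82.5% of the 9030 genes tested in all 6. The Mgmt-/- saline livers also served as controls in the contrasts behind the choice, while the ages did not enter it. In WT, 1 gene was called lower and 0 higher at week 10 against day 1 (5.47% and 4.01% of all genes tested), 0 lower and 2 higher at month 10 against day 1 (21.1% and 27.7%), and 0 lower and 4 higher at month 10 against week 10 (21.2% and 39.8%). The Mgmt-/- livers had 1 lower and 1 higher at week 10 against day 1 (9.44% and 7.35%), 1 lower and 4 higher at month 10 against day 1 (24.5% and 26.6%), and 1 lower and 1 higher at month 10 against week 10 (20.0% and 31.0%). Scaling every library to the same total moved the median of all genes by -0.15 to 0.39 in these comparisons. In WT it gave 4 genes called higher at month 10 against day 1, beside 35.2% of all genes tested, and 7 against week 10, beside 51.4%.

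Hibadh and Aldh6a1, on the valine route, rose to month 10 in both genotypes. Hibadh had WT saline counts of 123, 175 and 253 at day 1, then 248, 301 and 361 at week 10 and finally 406, 559.8 and 680.5 at month 10, so that month 10 did not overlap either earlier time. Its month 10 against day 1 log2 fold change was 1.24 ± 0.21 in WT (adjusted p = 1.65e-06) and 0.94 ± 0.14 in Mgmt-/- livers (adjusted p = 1.86e-07). In Mgmt-/- saline livers Hibadh was 174, 253 and 335 at day 1, then 406, 461 and 555 at week 10 and finally 532, 588 and 773 at month 10. Aldh6a1 was 117, 213 and 284 at day 1 and 347, 466 and 1080.0 at month 10 in WT, again with no overlap (log2 fold change 1.10 ± 0.27, adjusted p = 0.000636). The Aldh6a1 change in Mgmt-/- livers was 1.36 ± 0.26 (adjusted p = 2.09e-05), with overlap between 216, 309 and 679.9 at day 1 and 313, 495 and 1688 at month 10.

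Dbt fell from day 1 to week 10 in WT livers. It was 94.1, 129 and 270.5 at day 1, then 53.8, 58.9 and 86.8 at week 10 and finally 118, 142 and 189.6 at month 10, and week 10 lay below all livers of both other times. The WT log2 fold change of Dbt was -1.61 ± 0.29 from day 1 to week 10 (adjusted p = 4.52e-05) and 1.24 ± 0.16 from week 10 to month 10 (adjusted p = 1.58e-09). No WT batch held both day 1 and week 10 livers, so that the first of these was linked through month 10. Dbt in Mgmt-/- livers changed by -0.80 ± 0.20 to week 10 (adjusted p = 0.00229) and by -0.69 ± 0.19 to month 10 (adjusted p = 0.00166), but these calls rested on the covariates. Without them the changes were -0.19 and -0.07 (adjusted p = 0.436 and 0.725), and the month 10 change was not called under equal-total scaling either. Within batch 200803Eng, which held all Mgmt-/- week 10 and month 10 livers, Dbt medians were 362 at day 1 (4 livers), 190.5 at week 10 and 228 at month 10. In batch 191212Eng the day 1 median was 202 (8 livers).

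Acadsb moved in opposite directions between week 10 and month 10 in the 2 genotypes, a difference that was not tested. In WT it rose, with 151, 172 and 200.4 at week 10 and 231, 317 and 363 at month 10 (log2 fold change 0.72 ± 0.14, adjusted p = 5.99e-06), without overlap, though edgeR (0.36) and DESeq2 (0.47) put it short of the fold threshold. In Mgmt-/- livers it fell, with 377, 619 and 812 at week 10 and 174, 325 and 606 at month 10 (log2 fold change -0.80 ± 0.17, adjusted p = 9.13e-05), with overlap, and was not called under equal-total scaling. Among adult Mgmt-/- saline livers, where 4.2% of all genes were called between the sexes, 0 of the 10 genes were called by limma. An unadjusted p under 0.05 with limma was found for 1 of the 10, and for 1497 of the 9755 genes tested. Both edgeR and DESeq2 called 0 of the 10, and 451 and 541 of all genes tested. Acadsb had the lowest adjusted p of them, with females at -0.57 ± 0.19 on the log2 scale relative to males (adjusted p = 0.102).

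Mccc1 was called higher at week 10 (0.68 ± 0.20, adjusted p = 0.0115) and month 10 (0.80 ± 0.19, adjusted p = 0.000349) than at day 1 in Mgmt-/- saline livers, a direction that depended on the covariates. Day 1 livers had a Mccc1 median of 106 in batch 191212Eng and 39.0 in batch 200803Eng, against 64.9 at week 10 and 68.7 at month 10 in batch 200803Eng. Without the covariates the changes were -0.22 and -0.08, and the week 10 call was also lost under equal-total scaling and within batch 200803Eng. Bckdha was called higher at month 10 than at day 1 in Mgmt-/- livers (0.65 ± 0.22, adjusted p = 0.0131), but not without covariates (0.20, adjusted p = 0.297). With limma, Bckdhb, Ivd, Mccc2 and Hibch were called in none of the 6 age comparisons, but each was called in at least 1 of them under an alternative. Both edgeR and DESeq2 called Hibch lower at month 10 than at day 1 in WT (-0.80 and -0.80) and Ivd in Mgmt-/- livers (-0.58 and -0.58). In these fits 26.9% and 27.3% of all genes tested were called lower in WT, and 26.0% and 26.4% in Mgmt-/- livers. Ivd (-1.10) and Mccc2 (-0.92) were called lower there without covariates, and Bckdhb changed by 0.70 in WT from week 10 to month 10 and by -0.63 in Mgmt-/- livers from day 1 to week 10 under equal-total scaling, both called.

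**Figure D5:**
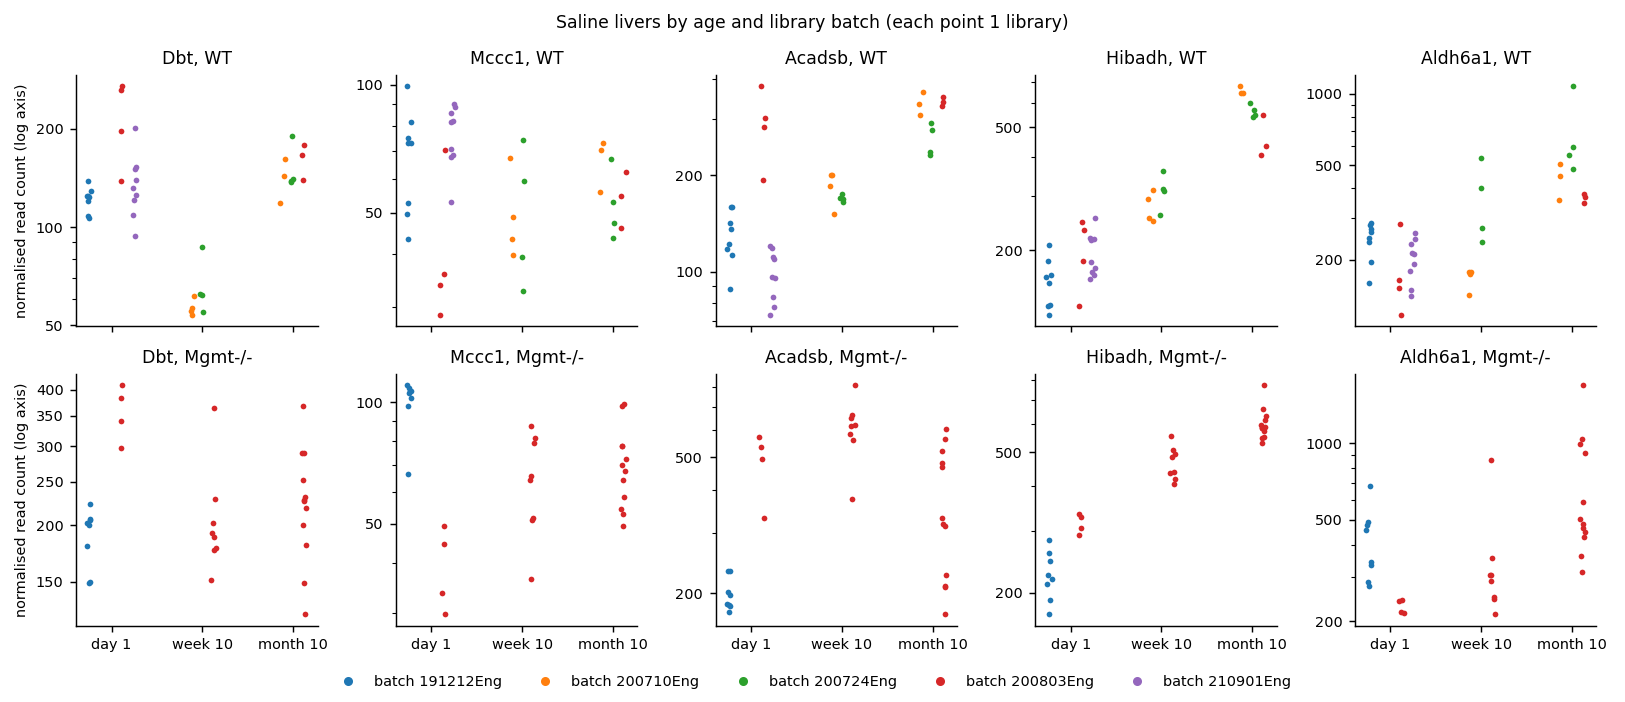
Normalised read count (log axis) of Dbt, Mccc1, Acadsb, Hibadh and Aldh6a1 in saline livers at day 1, week 10 and month 10, WT above and Mgmt-/- below, each point 1 library coloured by batch. Hibadh is highest at month 10 in both genotypes, WT Dbt is lowest at week 10, and in Mgmt-/- day 1 livers the batches stand apart for Mccc1 (medians 106 and 39.0).

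Across all libraries the 10 genes were only loosely tied to each other. The Pearson correlation of a gene with the mean of the other 9, on log2(value + 1), ranged from 0.0362 (Hibch) to 0.677 (Aldh6a1) over 117 WT libraries and from 0.121 (Acadsb) to 0.658 (Bckdha) over 94 Mgmt-/- libraries. The genes most like the mean of the 10 in WT were Slco1b2 (r = 0.849), Cyp1a2 (0.778), Glul (0.777), Ahcy (0.766) and Mmut (0.762) among 9098 genes. For Mgmt-/- livers they included Cyp2e1 (r = 0.879), Slco1b2 (0.877), Ces1d (0.843) and Rgn (0.841) among 10094. Libraries share treatment, age, batch and a size factor, so these values describe the profiles and carry no test. Slco1b2, a hepatocyte uptake transporter, was present in both lists.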

How the data were processed

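Liver RNA of 214 labelled mouse samples was profiled by 3′ digital gene expression, of which 213 had values and 211 were used. Reads were mapped by the authors with STAR (GRCm38/mm10) and assigned to genes by ESAT. The deposited values are a signal, gene counts over a DESeq2 size factor per library, computed within each genotype. Versions, strand use and the handling of molecular identifiers are not given in the sources used here. Whole reads were recovered in 209 columns, with 100% of values within 0.1 of a whole number. On these reads edgeR called 360 genes lower and 508 higher at day 1 in WT, and limma on the deposited values 378 and 452.

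Groups came from the labels, and each library is 1 mouse. Values were tested as log2(value + 1) with limma 3.58.1 (R 4.3.3; trend, robust), with sex and batch as terms, for genes whose mean was 5 or more, and p-values were two-sided and adjusted by the Benjamini-Hochberg method over all these genes. Fold changes are on this scale, which understates those of low genes. To be called, a gene had to reach an adjusted p below 0.05 together with a log2 fold change beyond 0.58 in size. Ages of saline livers shared 1 fit per genotype. The alternatives were edgeR 4.0.16 and DESeq2 1.42.0 on whole reads (4 libraries without recovered reads left out), pseudocounts 0.5 and 5, the filter dropped or raised to 20, no covariates, an equal total per library, single batches, and libraries left out or, for the 2 kidney-rich ones, kept. On data simulated from the WT day 1 libraries, limma recovered 85.9% of genes changed by 1 on the log2 scale and 100% of those changed by 2. For WT day 2 it recovered 35.1% and 84.1%, and for WT week 10 against day 1, 11.1% and 56.0%.

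The text names all 10 genes, Bckdk, Ppm1k, Dld, Bcat2, the other pathway genes called the same way in at least 3 of the 10 NDMA comparisons, up to 2 genes of each comparison list, and the 5 genes most like the mean in each genotype. Of these, 1 gene named by this rule, and the comparison list that holds it, are not reported here. The genes and lists were chosen with earlier results of these data known. Tables and plots were made in Python 3.11.15 using matplotlib 3.10.9, pandas 2.3.3 and numpy 2.4.6.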

Additional observations from a re-analysis of the deposited data

Results flagged for a closer look

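Of 130 groups of 4 to 10 livers examined for the 10 genes, 17 held a library set apart from the rest by the gap test. For independent groups chance alone gives about 1 in 20. The 10 genes share their livers, so the groups were not independent and the number was not tested against chance. Of the 17, 5 came from the shallow WT NDMA libraries with fewer than 300000 reads. They were Dbt at day 2 (21.0, others from 76.2), Hibadh at day 2 (42.1), day 5 (41.0) and week 10 (82.1), and Acadsb at week 10 (103, others from 179). The WT NDMA group at day 2 also held 1 high Mccc2 value (84.0, others up to 47.4).

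Among WT saline livers, 1 library at day 2 with 392164 reads was low for Ivd (139) and for Mccc1 (30.9), and another was high for Hibadh (335). Dbt was high in 1 library at week 10 (86.8, others up to 62.4) and Aldh6a1 in 1 at month 10 (1080.0, others up to 596).

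Among Mgmt-/- saline livers, Bckdhb was high (96.4) and Ivd low (289) in 1 library each at day 2, and Mccc2 was high in 1 at day 5 (309, others up to 201). At week 10, 1 library was high for Bckdhb (97.9) and for Dbt (365), and another for Aldh6a1 (859, others up to 353).

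Between times, 2 effects of NDMA were called in a test of the difference itself, in WT livers. The same tests called 2.12% of all genes between day 1 and week 10 and 1.82% between day 1 and month 10. Neither call held under every alternative, and day 1 and week 10 livers shared no batch. The log2 fold change after NDMA of Bckdha at day 1 minus that at week 10 was -0.77, and that of Mccc2 at day 1 minus that at month 10 was -0.78.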

How the results depend on the processing

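Over the 10 NDMA comparisons, 901 of 1000 alternative fold changes kept their direction and their side of the thresholds, 39 lost a call, 21 gained one, and 39 that were not called changed sign. Over the other comparisons the numbers were 1079, 16, 26 and 57 of 1180, and 2 called changes reversed. The uncalled changes of sign were of log2 values up to 0.33 in size after NDMA and 0.48 elsewhere. They included Dbt in WT at day 1, -0.33 overall and 0.05 in batch 200803Eng, and Ivd in Mgmt-/- saline livers at month 10 against week 10, -0.33 and 0.06 with an equal total. Both called changes that reversed were of Mccc1 in Mgmt-/- saline livers without covariates, -0.22 at week 10 and -0.084 at month 10 against day 1. The cause of the changes was not tested.

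Of the 10 genes, an equal total gave 1 called lower after NDMA in place of 4 in WT at day 1. Mgmt-/- livers had 3, 4 and 0 on days 2 and 5 and at week 10, in place of 7, 7 and 1. At day 1 batch 191212Eng gave 2 and 200803Eng 0 in WT, and 200803Eng 4 in place of 8 in Mgmt-/- livers. In WT at day 2 the 1 (2.91% of all genes) became 2 with edgeR (3.33%), DESeq2 (3.85%) or males (4.22%). It became 2 with a mean of at least 20 (5.98%), 3 with at least 300000 reads (4.79%) and 0 with females. In WT at day 5 the 2 (1.39%) became 4 with DESeq2 (4.5%) or males (5.36%), and 0 with no filter, no covariates or females. In Mgmt-/- livers, keeping the 2 kidney-rich libraries gave 4 in place of 7 at day 5. At week 10 the 1 (3.88%) became 2 with pseudocount 5 (3.98%) or DESeq2 (5.61%) and 3 with edgeR (5.73%).

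Between ages in WT, no covariates gave 1 higher in place of 0 at week 10 against day 1, beside 11.4% of all genes tested. At month 10 against day 1, no covariates gave 1, edgeR 2 and DESeq2 2 lower in place of 0, and an equal total 4 higher in place of 2. Of all genes tested, 24.1%, 26.9% and 27.3% were called lower in these fits in turn, and 35.2% higher with an equal total. At month 10 against week 10, edgeR gave 1 lower in place of 0 (29.1% of all genes tested) and an equal total 7 higher in place of 4 (51.4%). In Mgmt-/- livers at week 10 against day 1, an equal total gave 2 lower in place of 1, and for 1 higher, no covariates gave 2, an equal total 0, edgeR 2, DESeq2 2 and batch 200803Eng alone 0. At month 10 against day 1, no covariates gave 2, an equal total 0, edgeR 2 and DESeq2 2 lower in place of 1, and no covariates 2 higher in place of 4. At month 10 against week 10, an equal total gave 0 lower in place of 1 and 3 higher in place of 1 (9.76% and 46.2% of all genes tested). For the WT interaction of day 1 with week 10, in place of 1, pseudocount 0.5, no filter, no covariates, an equal total and edgeR each gave 0 and DESeq2 2; with month 10, no covariates and an equal total each gave 0. The batches 200803Eng and 210901Eng alone in WT at day 1 and 200803Eng alone in Mgmt-/- livers were chosen after seeing the data.

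Calls over all genes moved by over 1.5 times as follows. In WT at day 1, of 830, pseudocount 5 left 522, a mean of at least 20 left 418 and batch 200803Eng 0. In WT at day 2 the 534 became 354 without the filter, 871 in libraries of at least 300000 reads, 808 in males and 0 in females. In WT at day 5 the 312 became 77 without the filter, 150 without covariates, 629 with edgeR, 738 with DESeq2, 794 in libraries of at least 300000 reads, 1133 in males and 0 in females. At WT week 10 the 2 became 0 to 11, and at month 10 the 0 became 8 in males, 1 with DESeq2 and 0 with edgeR. For Mgmt-/- livers, a mean of at least 20 gave 1166 of 1780 at day 1, 1241 of 1880 at day 2 and 509 of 779 at month 10, batch 200803Eng gave 565 at day 1, and the kidney-rich libraries 1005 in place of 1661 at day 5. Between ages, no covariates gave 3227 in place of 858 (WT) and 2985 in place of 1660 (Mgmt-/-) at week 10 against day 1, and a mean of at least 20 gave 3202 of 5525 and 3338 of 5044 at month 10 against week 10. Without covariates the 410 calls between sexes became 228 and the interactions 100 of 193 and 76 of 166, the latter 289 with DESeq2.

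An equal total also moved lower and higher calls after NDMA. In WT they went from 378 and 452 to 276 and 525 at day 1. At day 2, 249 and 285 became 181 and 386. For Mgmt-/- they went from 869 and 911 to 513 and 1640 at day 1, from 710 and 1170 to 404 and 1639 at day 2, from 624 and 1037 to 399 and 1402 at day 5, and from 376 and 704 to 176 and 1154 at week 10. Between ages in WT, 495 and 363 became 655 and 287 (week 10 over day 1), 1914 and 2505 became 1544 and 3220 (month 10 over day 1), and 1923 and 3602 became 1104 and 4695 (month 10 over week 10). The same ages in Mgmt-/- livers went from 933 and 727 to 1330 and 510, from 2417 and 2633 to 1873 and 3305, and from 1980 and 3064 to 964 and 4567. The interactions went from 96 and 97 to 58 and 111, and from 88 and 78 to 54 and 120. No paired analysis was possible because the replicate names are unique to each mouse. Litters could not be told apart, and in 6 libraries depth under 300000 reads or kidney transcripts limit the values.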
